A study of Homo sapiens with 12 samples.

Results

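The E2F family of transcription factors (E2F1 to E2F8), their binding partner TFDP1 and the cell cycle factor MYBL2 were followed in macrophages made from THP-1 cells with and without the gene SDC3, with and without interferon-gamma (IFN-γ). These 10 genes, of 58051 in the count table, were taken by gene name, through the Ensembl identifier of each row. E2F8 and MYBL2 were chosen by their measured values as well: in these libraries both fell further with IFN-γ in knockout than in wild-type cells. Their values in comparisons that involve IFN-γ are therefore given as a description with no test, and so is the difference between the IFN-γ responses of the 2 genotypes for every one of the 10 genes. All 10 were among the 17119 genes with enough counts to be tested.

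THP-1 is an established human monocytic leukaemia line, and SDC3 encodes syndecan-3, a heparan sulfate proteoglycan of the cell surface. Poly-A RNA-seq libraries were made from 4 groups of 3 libraries each: SDC3-KO cells with IFN-γ, SDC3-KO cells without it, WT cells with IFN-γ and WT cells without it. The knockout was made with CRISPR/Cas9, and all 4 groups, controls included, had first been differentiated with the phorbol ester PMA at 20 ng/ml for 24 h. The labels name no dose or duration of IFN-γ, no number of knockout clones and no Cas9 control for the WT line. They do not call the replicates separate cultures, so the spread behind each p-value may be technical.

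The knocked-out gene was checked first. SDC3 had 237, 237 and 244 CPM (counts scaled to the size of the library) in SDC3-KO libraries with IFN-γ, against 578, 590 and 572 CPM in WT libraries with IFN-γ. Libraries without IFN-γ had 49.9, 48.2 and 43.9 CPM for SDC3-KO, against 196, 252 and 242 CPM for WT. The groups did not overlap and SDC3 mRNA was lower in SDC3-KO in both states, but it was not absent, and it was higher with IFN-γ in both genotypes. Libraries held 23616738 to 29426415 counts each, and 3 counts corresponded to 0.0925 to 0.130 CPM. Of 7 macrophage markers, 6 were at 1 CPM or more in every group, with a summed level of 4217 to 4444 CPM in SDC3-KO with IFN-γ, 3904 to 4070 CPM in SDC3-KO without it, 4797 to 4984 CPM in WT with IFN-γ and 4199 to 4336 CPM in WT without it. LYZ alone of these 6 was lower with IFN-γ, at 230 CPM in SDC3-KO and 533 CPM in WT. Without IFN-γ it had 896 CPM in SDC3-KO and 1295 CPM in WT. The seventh, CD68, was under 1 CPM, and 85.8% of its counted exon bases lie in other genes too. None of 5 T cell markers reached 1 CPM in any group, and CD2 was at 0 throughout.

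E2F proteins bind DNA at genes for S phase. E2F1, E2F2 and E2F3 are the activators, held in check by the retinoblastoma protein RB1 until cyclin-dependent kinases phosphorylate it. E2F4 and E2F5 act mostly as repressors with the RB1 relatives RBL1 and RBL2, E2F6 represses through a Polycomb complex, and the atypical E2F7 and E2F8 repress E2F targets without a partner of the TFDP (DP) family, which the other members need. MYBL2 (B-MYB) is itself an E2F target and joins the MuvB complex to switch on genes of G2 and mitosis. PMA is known to slow division of THP-1 cells as they become macrophage-like.

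RefSeq promoters of 300 bases (250 before to 50 after the start, GRCh38.p14) were available for 8 of the 10 genes, in 9 entries, because E2F3 has 2. They were searched on both strands for an E2F word, TTT followed by 2 letters that are each C or G, then CG, then a C or G, and for GGCGGGA, which overlaps that word in part. The words were chosen after the promoters had been seen. Of the 9 entries, 5 held the E2F word (in 5 of the 8 genes), while 6.19% of all 35116 promoters of that length did. GGCGGGA was in 5 of the 9 entries and in 15.4% of all promoters. The stretches below are shown because they let the letters of genes that differed in expression be read side by side. Capitals mark an E2F word or GGCGGGA on either strand, overlapping words running together.
E2F1, chr20:33686396-33686425, minus strand: ctcTTTCGCGGCAAAaaggaTTTGGCGCgt
E2F2, chr1:23531264-23531293, minus strand: gaaTTTCGCGGcacgacgTTTGGCGCtaaa
E2F3, chr6:20401823-20401852, plus strand: ccGGCGGGAAAtccgagTTTCGCGGgagga
E2F6, chr2:11466318-11466347, minus strand: ggtTTTCCCGGttgcctcttttctctcacc
TFDP1, chr13:113584630-113584659, plus strand: aagGCGCGAAAaggcgcgcaggcgcgctgc
MYBL2, chr20:43667072-43667101, plus strand: cttGGCGGGAgatagaaaagtgcttcaacc

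E2F1, E2F2 and E2F3 share the word TTTCGCGG within these stretches, and E2F1 and E2F2 also share TTTGGCGC. The MYBL2 window holds GGCGGGA and no E2F word, and no E2F word was found in the windows of E2F4 and E2F7. The stretches of E2F1 and MYBL2 lie before the RefSeq start. As the count table's annotation draws the genes, the E2F1 stretch runs into the gene and the MYBL2 stretch lies wholly inside it. In hg38 coordinates of that table, E2F1 spans chr20:33675683-33686404 and MYBL2 lies on the same chromosome at chr20:43667019-43716496. E2F2 spans chr1:23506430-23531220, E2F3 chr6:20401906-20493715, E2F4 chr16:67192169-67198918 and E2F6 chr2:11444375-11466177. E2F7 spans chr12:77021247-77065580, E2F8 chr11:19224063-19241620 and TFDP1 chr13:113584721-113641470. Only exons were counted. E2F5, on chromosome 8, shares 18.6% of its counted exon bases with RBIS and another gene, and since counting used no strand its values are uncertain.

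With IFN-γ, E2F1, E2F2, E2F7 and TFDP1 were lower in SDC3-KO than in WT cells, by 5.90-fold, 9.76-fold, 5.03-fold and 1.29-fold as fitted by edgeR. These were 4 of the 8 genes tested in that comparison (edgeR quasi-likelihood test, Benjamini-Hochberg adjusted over all genes, adjusted p under 0.05), and the other 4, E2F3 to E2F6, were not called. Among all 17119 genes, 47.2% were called in the same comparison and 24.3% were called lower, so the share of the 8 genes called was close to that of all genes and the count alone is no result about them. Without IFN-γ, 5 of the 10 genes were lower in SDC3-KO, namely E2F1, E2F2, E2F7, TFDP1 and MYBL2, with 50.1% of all genes called (25.4% higher, 24.8% lower). These differences were smaller, between 1.19-fold and 1.52-fold as fitted. In bulk libraries, fewer cells of a kind and less RNA per cell cannot be told apart.

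IFN-γ itself lowered most of the same genes. In SDC3-KO cells, E2F1, E2F2, E2F7 and TFDP1 fell with IFN-γ and E2F3 rose slightly, a sign that turned with library totals alone, with 5 of 8 genes called beside 61.1% of all genes (29.2% higher, 31.8% lower). In WT cells, E2F1, E2F2, E2F5, E2F7 and TFDP1 fell, 5 of 8 called with 56.5% of all genes called (28.6% higher, 27.9% lower), and 3 of 8 without replicate 3 of WT with IFN-γ. In both genotypes the share of the 8 genes called was near that of all genes, so these counts alone are no result about them. The comparisons in SDC3-KO with and without IFN-γ and of SDC3-KO with WT under IFN-γ share the SDC3-KO libraries with IFN-γ, in which 5 of the 10 genes were at their lowest by a wide margin. Groups without overlap were common among all genes: 54.3% for SDC3-KO and WT with IFN-γ, 56.1% for the genotypes without it, 66.2% for IFN-γ in SDC3-KO and 60.5% for IFN-γ in WT. Of the 10 genes, E2F8 and MYBL2 included, 6, 6, 8 and 7 had groups apart in these 4 comparisons. E2F8 and MYBL2, chosen by their IFN-γ values, were among those apart in every comparison that involves IFN-γ. Their choice raises those counts, and none of the 4 counts is a result about the 10 genes.

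**Figure D1:**
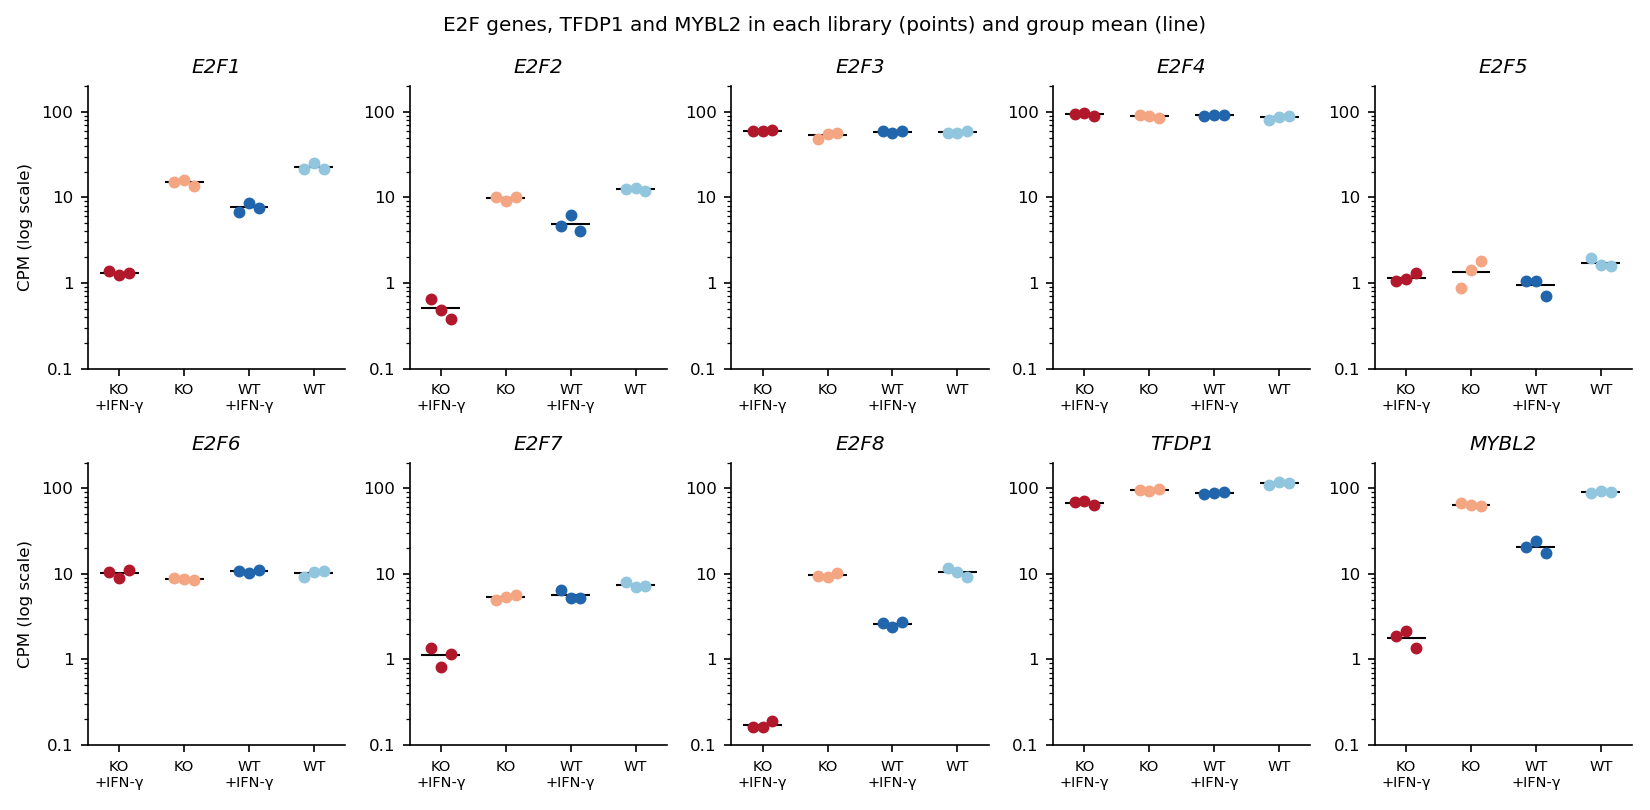
CPM (log scale) of each of the 10 genes in each library (points), with the group mean as a line, for SDC3-KO with IFN-γ, SDC3-KO, WT with IFN-γ and WT. E2F1, E2F2, E2F7, E2F8 and MYBL2 have their lowest 3 points in SDC3-KO with IFN-γ, at 0.172 (E2F8) to 1.80 CPM (MYBL2) on average, while E2F3 and E2F4 stay between 48.4 and 96.4 CPM in every library.

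Among the activators, E2F1 drives entry into S phase and can also trigger cell death. It had 1.38, 1.22 and 1.30 CPM in SDC3-KO libraries with IFN-γ, against 6.81, 8.66 and 7.56 CPM in WT libraries with IFN-γ. Without IFN-γ it had 15.3, 15.8 and 13.7 CPM in SDC3-KO libraries, against 21.4, 25.3 and 21.2 CPM in WT libraries. None of the 4 groups overlapped another, and the order from the highest was WT, SDC3-KO, WT with IFN-γ and SDC3-KO with IFN-γ. The log2 fold change of SDC3-KO over WT was −2.56 ± 0.16 with IFN-γ (SE; edgeR adjusted p = 6.08e-15) and −0.60 ± 0.09 without it (edgeR adjusted p = 2.08e-06). E2F1 fell with IFN-γ by a log2 fold change of −3.52 ± 0.14 in SDC3-KO (edgeR adjusted p = 1.75e-20) and of −1.56 ± 0.10 in WT (edgeR adjusted p = 1.01e-14).

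E2F2 is an activator with known roles in lymphocytes and red cell precursors of mice. It was at low counts in SDC3-KO libraries with IFN-γ, at 16, 12 and 10 counts or 0.648, 0.489 and 0.382 CPM, against 4.65, 6.16 and 3.998 CPM in WT libraries with IFN-γ. Without IFN-γ it had 10.0, 9.18 and 10.1 CPM in SDC3-KO libraries, against 12.4, 12.8 and 11.9 CPM in WT libraries. Again the 4 groups did not overlap, in the same order as for E2F1. The log2 fold change of SDC3-KO over WT was −3.29 ± 0.22 with IFN-γ (SE; edgeR adjusted p = 4.27e-14) and −0.34 ± 0.12 without it (edgeR adjusted p = 0.0158), and the second call was lost without replicate 2 of SDC3-KO (0.0763) or of WT (0.0547). IFN-γ lowered E2F2 by a log2 fold change of −4.27 ± 0.20 in SDC3-KO (edgeR adjusted p = 5.7e-19) and of −1.32 ± 0.13 in WT (edgeR adjusted p = 1.51e-10).

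E2F3, the third activator, was the exception. It had 59.0, 59.1 and 60.4 CPM in SDC3-KO libraries with IFN-γ, against 59.0, 56.1 and 59.8 CPM in WT libraries with IFN-γ. In the absence of IFN-γ it had 48.4, 55.0 and 56.9 CPM in SDC3-KO libraries, against 56.4, 56.5 and 59.5 CPM in WT libraries. The genotypes overlapped in both states, with log2 fold changes of SDC3-KO over WT of 0.03 ± 0.06 with IFN-γ and −0.10 ± 0.06 without it (SE; edgeR adjusted p = 0.698 and 0.131). With IFN-γ it was called higher in SDC3-KO, by a log2 fold change of 0.15 ± 0.06 (edgeR adjusted p = 0.0198), but this call was lost without replicate 3 of SDC3-KO with IFN-γ (0.0575) or replicate 1 of SDC3-KO (0.196), and its sign turned, to −0.14 (0.0257), when libraries were scaled by their totals alone. In WT it was at 0.02 ± 0.06 (edgeR adjusted p = 0.791). The promoter entry of E2F3 shown above holds the word TTTCGCGG, as those of E2F1 and E2F2 do, while its other entry holds no E2F word.

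Among the repressors that work with pocket proteins, E2F4 is the usual E2F of resting and differentiated cells. It was the most abundant E2F per kilobase of exon and lay between 81.0 and 96.4 CPM in all 12 libraries. The groups with IFN-γ averaged 93.1 ± 3.5 CPM in SDC3-KO and 90.5 ± 1.9 CPM in WT, and those without it 88.1 ± 2.8 CPM in SDC3-KO and 85.7 ± 4.1 CPM in WT (SD, n = 3 each). Neighbours in this order overlapped, and none of the 4 comparisons was called, with log2 fold changes between 0.04 and 0.08 (lowest edgeR adjusted p = 0.153). Scaled by library totals alone, both IFN-γ comparisons turned to called decreases, and in a fit of only the compared libraries the small increase in SDC3-KO was called (adjusted p = 0.0451).

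E2F5, the other repressor of this kind, had low counts, 16 to 56 in a library. It averaged 1.15 ± 0.13 CPM in SDC3-KO and 0.934 ± 0.207 CPM in WT with IFN-γ, and 1.36 ± 0.47 CPM in SDC3-KO and 1.72 ± 0.23 CPM in WT without it (SD, n = 3 each). It was called lower with IFN-γ in WT (log2 fold change −0.87 ± 0.29, SE; edgeR adjusted p = 0.0116), a call lost without replicate 3 of WT with IFN-γ (0.0636), and was not called in SDC3-KO (−0.24 ± 0.29, edgeR adjusted p = 0.479) nor between genotypes (0.29 ± 0.31 with IFN-γ and −0.33 ± 0.27 without it, edgeR adjusted p = 0.463 and 0.331). At this depth a change of E2F5 of the size seen for TFDP1 would not have been detectable.

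E2F6, the Polycomb-linked repressor, averaged 10.2 ± 1.0 CPM in SDC3-KO and 10.7 ± 0.4 CPM in WT with IFN-γ, and 8.72 ± 0.28 CPM in SDC3-KO and 10.1 ± 0.8 CPM in WT without it (SD, n = 3 each). The 2 genotypes overlapped with IFN-γ and did not overlap without it. None of its comparisons was called. The nearest were IFN-γ in SDC3-KO (log2 fold change 0.22 ± 0.10, SE; edgeR adjusted p = 0.0632) and SDC3-KO over WT without IFN-γ (−0.22 ± 0.10, edgeR adjusted p = 0.0718), and each crossed the threshold under some of the other settings tried.

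The atypical repressor E2F7 had 1.38, 0.814 and 1.15 CPM in SDC3-KO libraries with IFN-γ, against 6.45, 5.24 and 5.17 CPM in WT libraries with IFN-γ. In the absence of IFN-γ it had 4.97, 5.42 and 5.68 CPM in SDC3-KO libraries, against 8.08, 6.97 and 7.21 CPM in WT libraries. SDC3-KO lay below WT in both states with no overlap, and WT with IFN-γ overlapped SDC3-KO without it. The log2 fold change of SDC3-KO over WT was −2.33 ± 0.19 with IFN-γ (SE; edgeR adjusted p = 3.4e-12) and −0.47 ± 0.14 without it (edgeR adjusted p = 0.00541). IFN-γ lowered E2F7 by −2.26 ± 0.18 in SDC3-KO (edgeR adjusted p = 1.65e-12) and by −0.40 ± 0.14 in WT (edgeR adjusted p = 0.0163), and the WT call was lost without any one of 3 libraries (adjusted p between 0.0676 and 0.0739).

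E2F8, the second atypical repressor, was nearly undetected in SDC3-KO libraries with IFN-γ, at 4, 4 and 5 counts or 0.162, 0.163 and 0.191 CPM, against 66, 63 and 63 counts or 2.65, 2.39 and 2.74 CPM in WT libraries with IFN-γ. The 13 counts of the 3 SDC3-KO libraries together give 0.172 CPM with a 95% counting interval of 0.0918 to 0.295 CPM. It is meant for counting error only, and it is too narrow because mates of a pair were counted singly. Without IFN-γ it had 9.39, 9.15 and 10.2 CPM in SDC3-KO libraries, against 11.6, 10.4 and 9.16 CPM in WT libraries. The genotypes overlapped without IFN-γ and lay far apart with it. The one comparison of E2F8 that was tested, SDC3-KO over WT without IFN-γ, was not called (log2 fold change −0.11 ± 0.11, SE; edgeR adjusted p = 0.43); its libraries also enter the difference that singled E2F8 out. As a description, the level fitted by edgeR was 14.6-fold lower in SDC3-KO than in WT with IFN-γ, and with IFN-γ it was 54.1-fold lower than without it in SDC3-KO and 4.0-fold lower in WT; the folds that involve the 13 counts rest on them.

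TFDP1 encodes DP1, the partner that E2F1 to E2F6 need for DNA binding. It averaged 67.7 ± 3.4 CPM in SDC3-KO and 87.6 ± 2.4 CPM in WT with IFN-γ, and 95.4 ± 2.2 CPM in SDC3-KO and 114 ± 5 CPM in WT without it (SD, n = 3 each). No group overlapped another. All 4 differences passed the test and were modest, at log2 fold changes of −0.37 ± 0.05 for SDC3-KO over WT with IFN-γ, −0.25 ± 0.05 without it, −0.50 ± 0.05 for IFN-γ in SDC3-KO and −0.38 ± 0.05 for IFN-γ in WT (SE; highest edgeR adjusted p = 3.86e-05). A pseudogene copy, TFDP1P2, held at most 82 counts in a library, and reads common to both may be split between them.

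MYBL2, the MuvB partner, had the widest range of CPM, highest minus lowest library, of the 10 genes. It had 1.86, 2.16 and 1.38 CPM in SDC3-KO libraries with IFN-γ, against 20.5, 24.0 and 17.5 CPM in WT libraries with IFN-γ. Without IFN-γ it had 67.1, 63.5 and 61.6 CPM in SDC3-KO libraries, against 87.9, 93.5 and 91.1 CPM in WT libraries. The 4 groups did not overlap, in the order of E2F1. Its tested comparison, SDC3-KO over WT without IFN-γ, was called lower (log2 fold change −0.51 ± 0.07, SE; edgeR adjusted p = 1.98e-07), and these libraries enter the difference that singled it out. As a description, the level fitted by edgeR was 11.5-fold lower in SDC3-KO than in WT with IFN-γ, and with IFN-γ it was 35.7-fold lower than without it in SDC3-KO and 4.38-fold lower in WT.

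**Figure D2:**
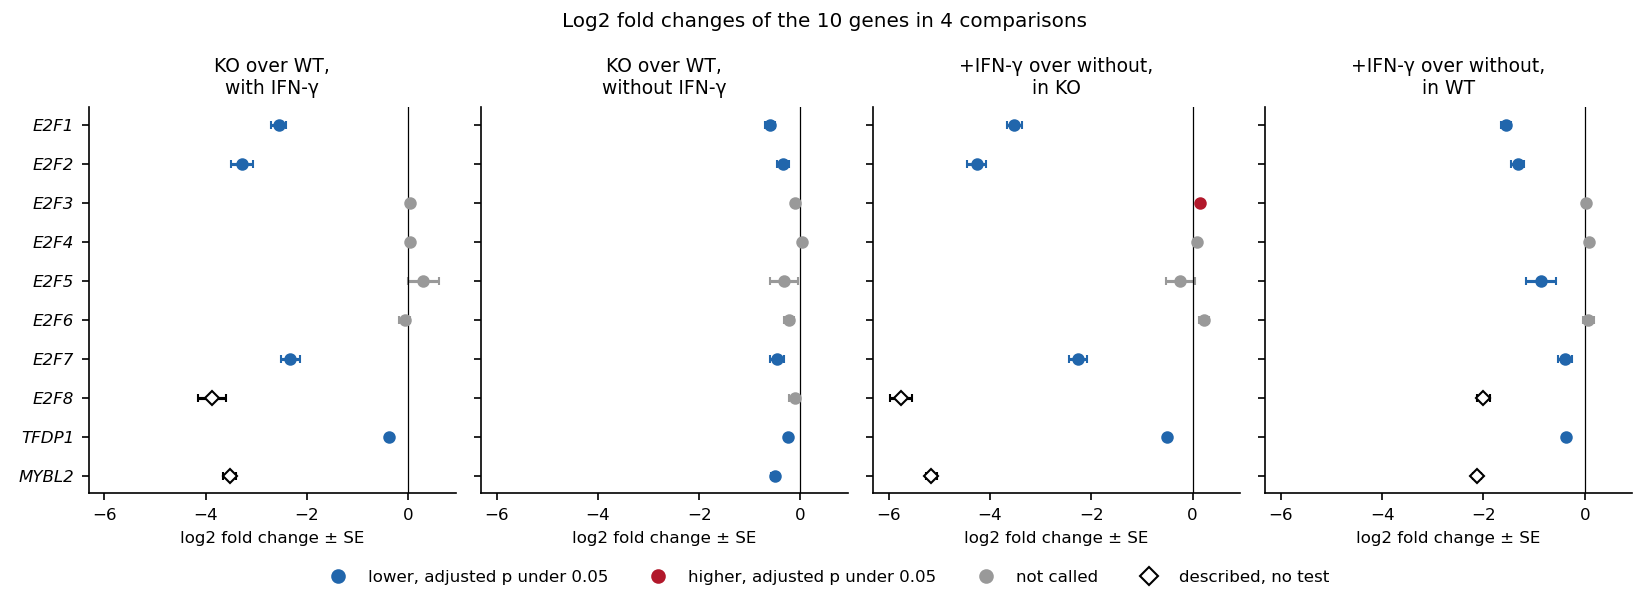
Log2 fold change ± SE (edgeR) of the 10 genes, SDC3-KO over WT with and without IFN-γ and IFN-γ over none in SDC3-KO and in WT; filled points were tested, open diamonds are E2F8 and MYBL2 where they are described only. E2F1, E2F2 and E2F7 lie near −2 to −4 in SDC3-KO with IFN-γ, E2F3 to E2F6 stay within 0.9 of 0 throughout, and the 1 point called higher (E2F3, IFN-γ in SDC3-KO, 0.15) turns to −0.14 when libraries are scaled by their totals alone.

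The IFN-γ response of SDC3-KO minus that of WT, which helped to choose the genes and is given with no test, separated the family in 2. It was −3.76 ± 0.31 for E2F8, −3.02 ± 0.15 for MYBL2, −2.95 ± 0.26 for E2F2, −1.96 ± 0.19 for E2F1 and −1.87 ± 0.24 for E2F7 (log2, SE). For the rest it was 0.62 ± 0.41 for E2F5, 0.15 ± 0.14 for E2F6, 0.13 ± 0.08 for E2F3, 0.00 ± 0.07 for E2F4 and −0.12 ± 0.07 for TFDP1. Of all genes, 15.5% were called in that difference, 7.61% higher and 7.86% lower. The genes with the larger values were an activator pair, both atypical repressors and MYBL2. For E2F8 and MYBL2 a large value follows from the way they were chosen. These genes are known to be transcribed mainly in dividing cells, and the part of dividing cells in these values was not tested.

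Summed by class, the activator E2Fs were lower with IFN-γ in both genotypes and lower in SDC3-KO than in WT in both states. Levels were set per kilobase of counted exon so that genes could be added. The activators E2F1 to E2F3 summed to 12.1 ± 0.1 CPM per kb in SDC3-KO and 15.3 ± 0.2 in WT with IFN-γ, and to 18.1 ± 0.7 in SDC3-KO and 22.4 ± 0.8 in WT without it (SD, n = 3 each). The repressors E2F4 to E2F6 summed to 28.7 ± 0.7 CPM per kb in SDC3-KO and 28.1 ± 0.5 in WT with IFN-γ, and to 26.96 ± 0.76 in SDC3-KO and 26.7 ± 1.3 in WT without it. The log2 ratio of activators to these repressors was −1.24 ± 0.05 in SDC3-KO and −0.88 ± 0.02 in WT with IFN-γ, and −0.57 ± 0.09 in SDC3-KO and −0.25 ± 0.06 in WT without it. The 4 groups of libraries did not overlap in the activator sum, whereas the repressor means all lay between 26.7 and 28.7 CPM per kb. These sums run over genes chosen with earlier results of these data known and carry no test.

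Within the activators the share of E2F3 was higher with IFN-γ. E2F3 made up 94.96% ± 0.42 of the activator sum in SDC3-KO and 74.0% ± 3.2 in WT with IFN-γ, against 57.1% ± 2.9 in SDC3-KO and 49.6% ± 2.6 in WT without it (SD, n = 3 each). E2F1 and E2F2 together stood at 0.612 ± 0.050 CPM per kb in SDC3-KO and 3.97 ± 0.54 in WT with IFN-γ, and at 7.76 ± 0.37 in SDC3-KO and 11.3 ± 1.0 in WT without it. The atypical pair E2F7 and E2F8 summed to 0.218 ± 0.045 CPM per kb in SDC3-KO and 1.52 ± 0.13 in WT with IFN-γ, and to 3.16 ± 0.17 in SDC3-KO and 3.68 ± 0.37 in WT without it. E2F4 was 89.6% to 91.2% of the repressor sum in every group.

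**Figure D3:**
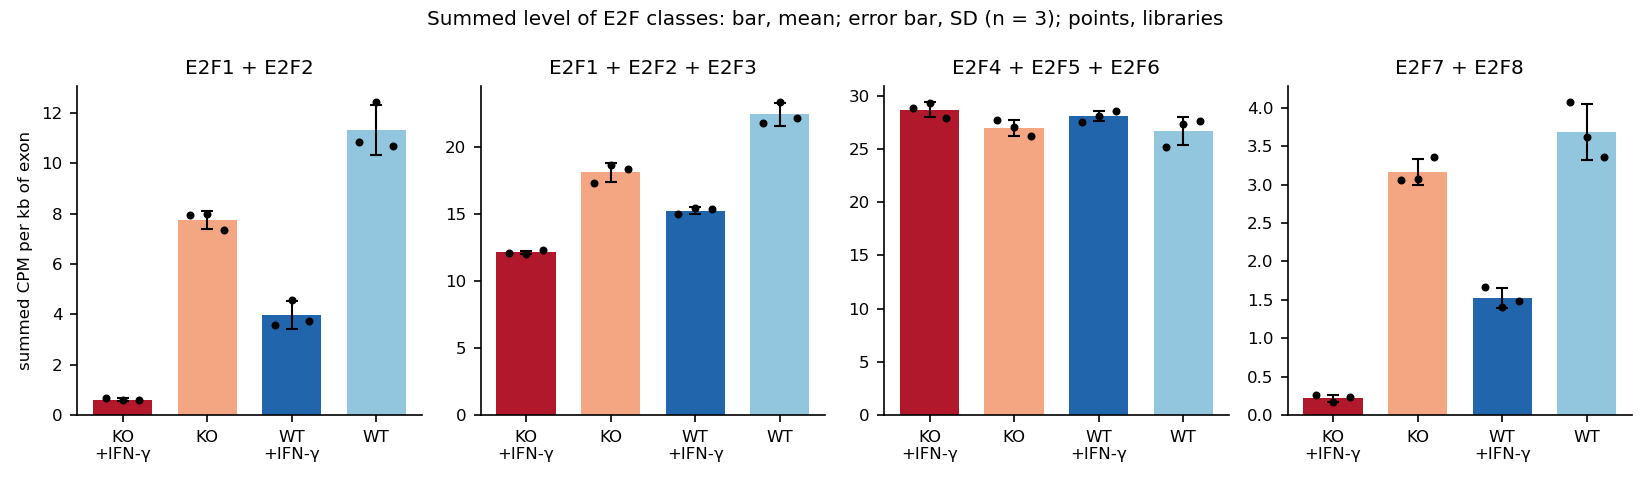
Summed CPM per kb of counted exon for E2F1 with E2F2, for the activators E2F1 to E2F3, for the repressors E2F4 to E2F6 and for the atypical E2F7 with E2F8 (bars, mean; error bars, SD, n = 3; points, libraries). The first and last sums are lowest in SDC3-KO with IFN-γ (0.612 and 0.218 CPM per kb), the activator sum there is mostly E2F3, and the repressor sum lies between 26.7 and 28.7 in all 4 groups.

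Genes that E2Fs are known to switch on at the G1/S transition (35 genes for replication and nucleotide supply) were mostly lower in SDC3-KO with IFN-γ. Against WT with IFN-γ, 29 of the 35 were lower and 2 higher, with a median log2 fold change of −0.68, beside −0.01 over all genes tested and 24.3% of these called lower. CDC45, part of the replicative helicase, averaged 0.454 CPM in SDC3-KO and 5.36 CPM in WT (log2 fold change −3.56 ± 0.21, SE; edgeR adjusted p = 3.6e-15). RRM2, the regulated subunit of ribonucleotide reductase, averaged 1.22 CPM in SDC3-KO and 11.9 CPM in WT (−3.28 ± 0.15, edgeR adjusted p = 5.26e-18). The 2 higher genes were EZH2, a histone methyltransferase (0.23 ± 0.06), and SLBP, which binds histone mRNA (0.20 ± 0.06). Without IFN-γ, 16 of the 35 were lower in SDC3-KO, among them PRIM1 (−0.70 ± 0.10) and TYMS (−0.69 ± 0.07), and 2 were higher, CHAF1B (0.51 ± 0.13) and CHAF1A (0.33 ± 0.07). The median was −0.17, beside 0.01 over all genes, of which 24.8% were called lower and 25.4% higher.

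With IFN-γ, 32 of these 35 genes fell in SDC3-KO (median log2 fold change −1.47, beside −0.05 over all genes and 31.8% of these called lower). In WT, 31 fell (median −0.99, beside −0.02 and 27.9%), while EZH2 and DNMT1 rose in both genotypes. The largest falls in SDC3-KO were those of MCM10, which loads the replication machinery (−5.14 ± 0.24), and RRM2 (−4.95 ± 0.13). The difference of the 2 responses was called lower, a deeper fall or a smaller rise in SDC3-KO, for 20 of the 35, with 7.86% of all genes called lower. The E2F word was in 57.1% of the 42 promoters found for 31 of these genes, against 6.19% of all promoters.

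Genes of G2 and mitosis that MYBL2 with MuvB and FOXM1 are known to switch on were lower throughout with IFN-γ. All 24 were lower in SDC3-KO than in WT with IFN-γ, with a median log2 fold change of −1.60, beside −0.01 over all genes and 24.3% of these called lower. KIF23, a kinesin of cytokinesis, averaged 0.613 CPM in SDC3-KO and 5.27 CPM in WT (−3.10 ± 0.19, SE; edgeR adjusted p = 7.03e-15), and TOP2A, topoisomerase II alpha, averaged 8.89 CPM in SDC3-KO and 46.1 CPM in WT (−2.38 ± 0.08, edgeR adjusted p = 3.29e-21). Without IFN-γ, 14 of the 24 were lower in SDC3-KO, led by AURKB (−0.92 ± 0.11) and BIRC5 (−0.66 ± 0.08), with a median of −0.18, beside 0.01 over all genes and 24.8% called lower. All 24 fell with IFN-γ in SDC3-KO (median −3.90, beside −0.05 over all genes and 31.8% called lower) and in WT (median −2.37, beside −0.02 and 27.9%). The difference of the responses was called lower for 23 of the 24, with 7.86% of all genes called lower, the exception, named after its value was seen, being AURKA (−0.16). The cell cycle homology word, TTTGAA or TTCGAA on either strand, was in 66.7% of the 24 promoters found for 19 of these genes and in 16.4% of all promoters, and CCAAT in 83.3% and 34.6%, whereas 1 of the 9 promoter entries of the E2F family, TFDP1 and MYBL2 held the first word, that of E2F3.

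**Figure D4:**
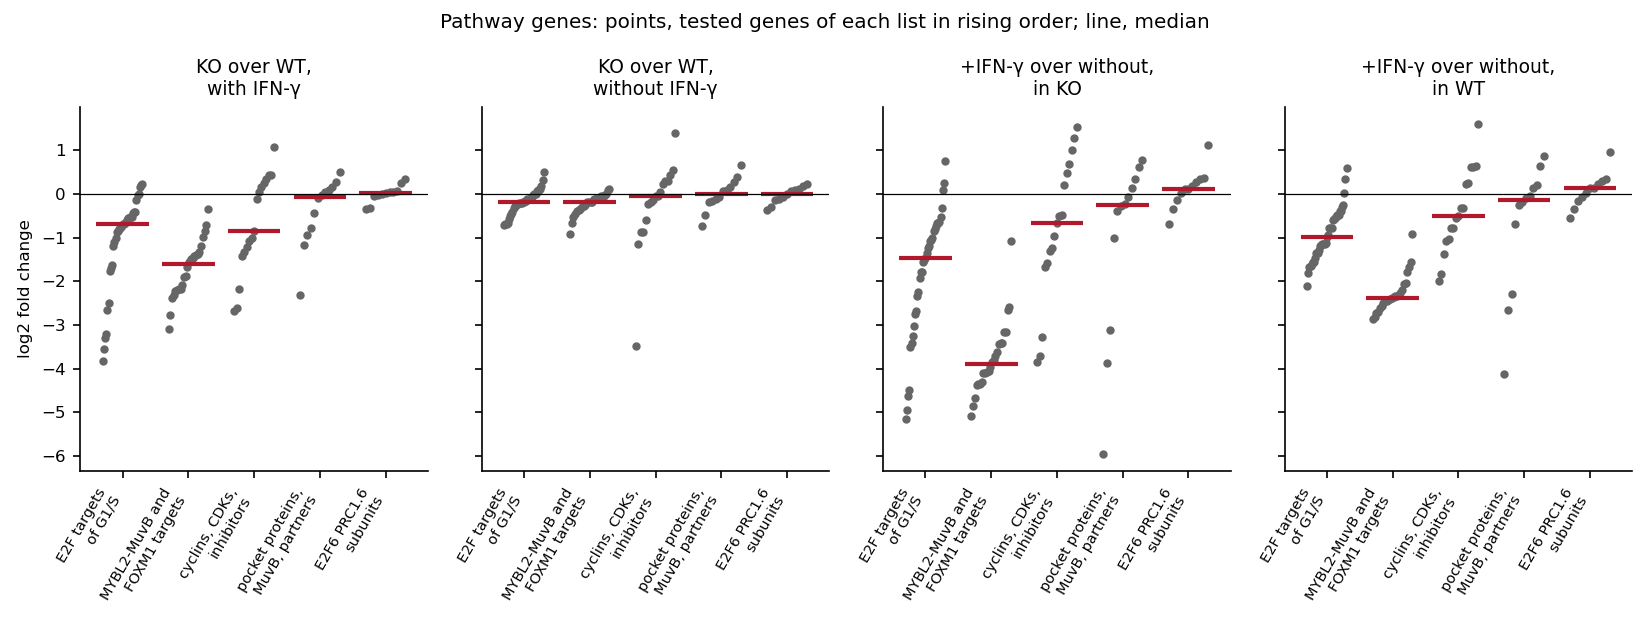
Log2 fold changes (edgeR) of the tested genes of 5 lists in 4 comparisons, each point a gene in rising order and the line the median. The G1/S and G2/M target lists lie lowest in SDC3-KO with IFN-γ over SDC3-KO without it (medians −1.47 and −3.90), and the medians of the PRC1.6 subunits stay between 0.01 and 0.13.

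Of 13 partners and readers of E2F (pocket proteins, other DP and MuvB subunits, FOXM1 and MYB genes), 12 were tested. With IFN-γ, 4 were lower in SDC3-KO than in WT (FOXM1, MYB, TFDP2 and LIN9) and 3 higher (LIN52, LIN54 and RBL2), with a median of −0.06. With 24.3% of all genes called lower and 22.9% higher, these counts are near the background. FOXM1, which takes over MuvB targets in mitosis, averaged 1.49 CPM in SDC3-KO and 7.38 CPM in WT (log2 fold change −2.30 ± 0.17, SE; edgeR adjusted p = 4.99e-13). TFDP2, the second DP partner, averaged 21.0 CPM in SDC3-KO and 35.6 CPM in WT (−0.76 ± 0.08, edgeR adjusted p = 6.18e-10). Without IFN-γ, 3 were lower (FOXM1, TFDP2 and RB1) and 3 higher, among them MYB, the blood progenitor relative of MYBL2, at 127 CPM in SDC3-KO and 79.7 CPM in WT (0.67 ± 0.06, edgeR adjusted p = 9.45e-11). MYB thus went the other way from MYBL2 in that comparison, in which 24.8% of all genes were called lower and 25.4% higher. With IFN-γ, RB1 rose and MYB and FOXM1 fell in both genotypes, RB1 by 0.78 ± 0.04 in SDC3-KO and 0.64 ± 0.04 in WT, and MYB to 2.03 CPM in SDC3-KO and 4.57 CPM in WT.

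Of 19 cyclins, kinases and inhibitors that set pocket protein phosphorylation, 17 were tested, and CDKN2A and CDKN2B had 0 counts in all 12 libraries. With IFN-γ, 9 were lower in SDC3-KO than in WT and 5 higher, with a median of −0.85, beside 24.3% of all genes called lower, 22.9% higher and a median of −0.01. CCND1, a D-type cyclin, averaged 3.93 CPM in SDC3-KO and 17.9 CPM in WT (log2 fold change −2.18 ± 0.13, SE; edgeR adjusted p = 1.96e-15), and CCNA2, the cyclin of S phase, averaged 3.67 CPM in SDC3-KO and 9.74 CPM in WT (−1.41 ± 0.11, edgeR adjusted p = 2.29e-12). CDKN1A, the kinase inhibitor p21, was higher, at 654 CPM in SDC3-KO and 486 CPM in WT (0.43 ± 0.04, edgeR adjusted p = 6.28e-11). Without IFN-γ, 6 were lower in SDC3-KO, led by CCND1 (−3.47 ± 0.15) and CDK4 (−0.86 ± 0.06), and 5 were higher, among them SKP2 (0.55 ± 0.09) and CCND3 (0.45 ± 0.04), with 24.8% of all genes lower and 25.4% higher. With IFN-γ, 11 fell and 6 rose in SDC3-KO, beside 31.8% and 29.2% of all genes, and 10 fell and 6 rose in WT, beside 27.9% and 28.6%. CDKN1A rose by 1.00 ± 0.04 in SDC3-KO.

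The 11 subunits of the PRC1.6 complex that E2F6 belongs to differed little between genotypes. With IFN-γ, MAX was higher in SDC3-KO (0.35 ± 0.05, SE) and RYBP and YAF2 lower (−0.32 ± 0.06 and −0.34 ± 0.14), and the median was 0.04, with 47.2% of all genes called. Without IFN-γ, MAX and WDR5 were higher and RYBP and MGA lower, at 0.36 or less in size. With IFN-γ, 6 rose and 2 fell in SDC3-KO and 4 rose and 3 fell in WT, MAX the most (1.13 ± 0.05 in SDC3-KO and 0.96 ± 0.05 in WT). With 61.1% and 56.5% of all genes called, these counts are near the background and no result about the complex. In the difference of the responses none of the 11 was called with edgeR, 1 had an unadjusted p under 0.05, and DESeq2 called 1.

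By profile over the 12 libraries, MYBL2 and E2F8 were most like the same 5 genes among 10747 compared. Likeness was the root mean square difference of log2 CPM after each gene was centred on its mean. Both genes were chosen by their IFN-γ values in these same libraries, so that they share their nearest genes follows in part from the choice. E2F8 and MCM10 were at low counts in SDC3-KO with IFN-γ, at 0.172 and 0.240 CPM on average. For MYBL2 these were KIF23 (0.27), RRM2 (0.31), TYMS (0.32), MCM10 (0.34) and TICRR (0.35), and for E2F8 KIF23 (0.34), RRM2 (0.36), TICRR (0.38), TYMS (0.39) and MCM10 (0.42). The nearest to E2F1 was TK1, thymidine kinase (0.09), at 3.62 and 38.6 CPM in SDC3-KO with and without IFN-γ and 20.5 and 56.8 CPM in WT with and without it. AURKB (0.20), CDC6 (0.20), DIAPH3 (0.23) and HELLS (0.25) followed.

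The genes around each member were examined for stretches of chromosome that moved as a whole. Among the 19 tested neighbours of TFDP1, 12 were lower in SDC3-KO than in WT with IFN-γ and the other 7 were not called, with a median log2 fold change of −0.33, close to the −0.37 of TFDP1 itself. Without IFN-γ, 12 were again lower and the median was −0.28, beside −0.25 for TFDP1. Around E2F7, 10 of 20 neighbours were lower and 2 higher with IFN-γ (median −0.62), and 8 lower and 3 higher without it (median −0.43, beside −0.47 for E2F7). Over all genes, 24.3% were called lower and 22.9% higher in SDC3-KO with IFN-γ, and 24.8% and 25.4% without it. The number called around E2F7 without IFN-γ was thus near the 50.1% of all genes called. Around MYBL2 the medians were −0.18 with IFN-γ (10 of 20 neighbours lower in SDC3-KO, 0 higher) and −0.07 without it (3 lower, 2 higher). Around E2F1 they were −0.26 with IFN-γ (8 of 20 lower, 1 higher) and −0.20 without it (7 lower, 2 higher). The 20 neighbours of MYBL2 also differed with IFN-γ, 14 lower and 3 higher in SDC3-KO (median −0.59), beside 31.8% and 29.2% of all genes. In WT, 11 were lower and 4 higher (median −0.31), beside 27.9% and 28.6% of all genes. The median difference of the responses was −0.23, and each of these medians was far smaller in size than the value of MYBL2 itself. Around the other 6 genes the medians of SDC3-KO over WT, with and without IFN-γ, lay between −0.13 and 0.07. Neighbours of E2F3 had a median IFN-γ response of 0.38 in SDC3-KO (10 higher, 6 lower), beside 0.15 for E2F3 itself. In WT that median was 0.18 (9 higher, 5 lower), beside 0.02 for E2F3. The part of such stretches in the values of TFDP1, E2F7, MYBL2, E2F1 and E2F3 was not tested.

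Markers of immature myeloid cells moved with genotype and IFN-γ as well. The summed level of MPO, ELANE, AZU1, PRTN3 and CTSG, granule genes of monoblasts and promyelocytes, was 83.7 to 97.5 CPM in SDC3-KO and 24.4 to 26.1 CPM in WT with IFN-γ, and 192 to 215 CPM in SDC3-KO and 124 to 133 CPM in WT without it. Of these 5 genes, 4 were at 1 CPM or more in both groups with IFN-γ and all 5 in both groups without it. The sum was lower with IFN-γ in both genotypes, as E2F1 was, but SDC3-KO lay above WT, the opposite side from E2F1, E2F2, E2F7, E2F8 and MYBL2. MPO alone of the 5 was lower in SDC3-KO, at 0.0540 CPM in SDC3-KO and 0.112 CPM in WT with IFN-γ, and 1.04 CPM in SDC3-KO and 2.39 CPM in WT without it. The part of immature cells in the results was not tested. Of the other lists, B cell markers summed to 3.38 to 5.07 CPM in SDC3-KO and 11.2 to 14.2 CPM in WT with MS4A1 at 0, epithelial markers to 0.258 to 2.47 CPM in SDC3-KO and 1.11 to 2.48 CPM in WT with EPCAM and CDH1 at or near 0, and fibroblast markers, mostly COL1A1 with COL3A1 at or near 0, to 12.7 to 20.2 CPM in SDC3-KO and 8.26 to 13.6 CPM in WT.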

How the data were processed

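Whole-number counts of exon reads per gene were deposited by the authors; per the file headers they come from featureCounts 2.0.3 run on paired reads, without chimeric pairs, primary alignments only, with no strand option and an hg38 annotation. The submitters' processing notes list, with no roles, STAR 2.7.10b and BWA as aligners, fastp 0.23.2 and Picard 2.27.5; the aligner behind these counts is not stated. Per the labels, libraries came from a stranded poly-A kit with 1 µg of total RNA. Per the file headers the option that counts a pair once was not set, and 70.4% to 73.3% of counts from 1 to 19 were even, so mates were counted singly and counting intervals are too narrow. The file headers also give each gene's exon length, used for CPM per kb.

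Computed here: edgeR 4.0.16 (R 4.3.3) with TMM scaling, default low-count filter, 1 quasi-likelihood fit of all 12 libraries with a term per group, two-sided, Benjamini-Hochberg over 17119 genes, threshold 0.05; tested on simulated counts. SEs are the log2 fold change over the root of the F statistic. CPM use TMM-scaled totals. The members and lists were chosen with earlier results of these data known. From each list, named genes are the 2 largest rises and falls past the threshold with a mean of at least 5 CPM in the higher group; others are named as counts of 5 or fewer, after their values were seen. Likeness used log2 CPM with a prior count of 0.5 and genes of at least 5 CPM. Replicate libraries differed by more than counting noise (chi-square over degrees of freedom 2.90 to 7.58). Symbols matched 56948 of 58051 identifiers. Other scalings, filters, DESeq2 1.42.0, a replicate term, left-out libraries and halved counts were tried. Protein sequences were not used here.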

Additional observations from a re-analysis of the deposited data

Results flagged for a closer look

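For the 10 genes below, named from the pathway lists by the rule for named genes, the IFN-γ response differed between SDC3-KO and WT by a test of the difference itself (edgeR, log2 response of SDC3-KO minus that of WT, SE, adjusted over 17119 genes). Among G1/S genes it was −3.33 ± 0.32 for MCM10 and −3.29 ± 0.17 for RRM2, which averaged 0.240 and 1.22 CPM in SDC3-KO with IFN-γ, against 8.60 and 37.8 CPM in SDC3-KO without it, and 3.44 and 11.9 CPM in WT with IFN-γ, against 12.1 and 37.7 CPM in WT without it. Among G2/M genes it was −2.73 ± 0.22 for KIF23 and −2.18 ± 0.38 for CDC25C. Among cyclins, kinases and inhibitors it was −2.02 ± 0.26 for CDC25A, −1.28 ± 0.13 for CCNA2, 0.39 ± 0.06 for CDKN1A and 1.29 ± 0.21 for CCND1. Among partners it was −1.84 ± 0.17 for MYB and −1.58 ± 0.20 for FOXM1. The highest adjusted p of the 10 was 6.55e-05. The positive differences belong to genes that were higher with IFN-γ. CCND1 averaged 3.93 CPM in SDC3-KO with IFN-γ, against 1.36 CPM without it, and 17.9 CPM in WT with IFN-γ, against 15.04 CPM without it. CDKN1A averaged 654 CPM in SDC3-KO with IFN-γ, against 327 CPM without it, and 486 CPM in WT with IFN-γ, against 317 CPM without it.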

How the results depend on the processing

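The number of members called moved by over 1.5 times once, in the IFN-γ response of WT, from 5 to 3 without replicate 3 of WT with IFN-γ (range over left-out libraries 3 to 5). For PRC1.6 subunits, calls for IFN-γ in SDC3-KO went from 8 to 5 with library totals alone, and calls in the difference of the responses from 0 to 1 with DESeq2, with RLE size factors, and in the range of 0 to 1 over left-out libraries (replicate 1 of WT with IFN-γ or of WT). The other 466 recomputed counts and class ratios stayed within 1.5 times. The class ratio does not depend on scaling by construction. Of single-gene values, 769 kept their side of the threshold or, where no test was made, stayed within the spread of the libraries. Some of these changed sign while uncalled in both fits, such as E2F6 for IFN-γ in SDC3-KO, at −0.08 with library totals alone. Of the rest, 10 lost a call, 8 gained one, 4 moved and 4 turned their sign with a call in the main or the other fit. All 4 turned with library totals alone: E2F3 with IFN-γ was at −0.14 in SDC3-KO (adjusted p = 0.0257) and −0.23 in WT (0.000736), and E2F4 at −0.22 in SDC3-KO (0.000179) and −0.17 in WT (0.00227). That scaling put the median gene at −0.35 in SDC3-KO and −0.27 in WT, against −0.05 and −0.02 with TMM, and made 23.4% and 25.1% of calls increases, against 47.9% and 50.7%; for SDC3-KO over WT with IFN-γ, increases were 35.6% of calls, against 48.6%. Upper-quartile scaling put the median gene at −0.17 and −0.13, and E2F3 lost its call there (0.605) and with a filter of 5 CPM (0.0857). E2F6 gained a call for IFN-γ in SDC3-KO with RLE (0.0475), with only the compared libraries (0.0441) and without replicate 2 of SDC3-KO with IFN-γ (0.0141). The replicate numbers did not pair the libraries: same-numbered libraries correlated at −0.137 to 0.231, above 0.1 in 2 of 18 pairs. A replicate block gave 7983 calls for SDC3-KO over WT with IFN-γ, 8500 without it, 10375 for IFN-γ in SDC3-KO, 9600 in WT and 2588 in the difference, and the same number of members called. Halving the counts for mates, chosen after seeing the data, changed no member's call. Depth limits E2F8, E2F2 and E2F5 most.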

Other observations

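The D-type cyclins, the first kinase partners to act on pocket proteins, differed by genotype in opposite directions. CCND1 averaged 3.93 CPM in SDC3-KO and 17.9 CPM in WT with IFN-γ, and 1.36 CPM in SDC3-KO and 15.04 CPM in WT without it. CCND2 was lower in SDC3-KO as well (log2 fold change −1.33 ± 0.32 with IFN-γ and −1.14 ± 0.26 without it, SE; edgeR adjusted p = 0.000852 and 0.000495), at 0.658 CPM in SDC3-KO and 1.67 CPM in WT with IFN-γ, and it was named after its values were seen. CCND3 was higher in SDC3-KO, at 253 CPM in SDC3-KO and 188 CPM in WT with IFN-γ (log2 fold change 0.43 ± 0.04, SE; edgeR adjusted p = 2.67e-10), and 220 CPM in SDC3-KO and 161 CPM in WT without it (0.45 ± 0.04, edgeR adjusted p = 8.74e-11). CDK4, one of their kinases, was lower in SDC3-KO in both states. With IFN-γ it had 29.4 CPM in SDC3-KO and 52.9 CPM in WT (−0.85 ± 0.06, edgeR adjusted p = 9.18e-13). Without IFN-γ it had 41.2 CPM in SDC3-KO and 74.9 CPM in WT (−0.86 ± 0.06, edgeR adjusted p = 1.01e-13). CDK6, another of their kinases, was more abundant and lay on the other side, and it was named after its values were seen. It had 294 CPM in SDC3-KO and 261 CPM in WT with IFN-γ (log2 fold change 0.17). Without IFN-γ, CDK6 had 209 CPM in SDC3-KO and 170 CPM in WT (0.30).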
